A study of Mus musculus with 10 samples.

Results

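Cpa1 and Cpb1 encode carboxypeptidases A1 and B1, the main digestive carboxypeptidases of the pancreas. They were taken by symbol from a table of read counts per gene, and are 2 of the 24421 genes in that table. RNA was sequenced from a piece of the pancreas tail of female mice aged 12 weeks, each mouse giving 1 of the 10 libraries. The mice carried Ptf1aCreER, a Cre recombinase that tamoxifen activates in cells that use the Ptf1a gene, which in the adult pancreas are the acinar cells. They also carried nTnG, a nuclear fluorescent reporter that changes colour where Cre has acted. The groups differed in Insr, the insulin receptor gene. Insr WT mice (3 libraries) had 0 floxed alleles (Insrw/w), Insr Het mice (3 libraries) had 1 (Insrw/f) and Insr KO mice (4 libraries) had 2 (Insrf/f). A floxed allele is one that Cre can cut, so other cell types of the same piece of tissue keep a working receptor. One label counts 4 WT mice, of which 3 were analysed here. Libraries are named by group and mouse number, as in WT-2404.

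Acinar cells make digestive enzymes as inactive precursors, pack them in zymogen granules and release them into the duct. Procarboxypeptidases A1 and B1 are zinc peptidases of the M14 family, and trypsin activates both in the gut by cutting off a leading propeptide. Carboxypeptidase A1 then removes aromatic and branched aliphatic residues from the end of a peptide, and carboxypeptidase B1 removes lysine and arginine. Their genes are standard markers of acinar cells, and Cpa1 is also used as a marker of the progenitor cells of the embryonic pancreas.

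In the GENCODE M21 models of build GRCm38, Cpa1 (ENSMUSG00000054446.8) lies on the plus strand at chr6:30639218-30645363. Its longest coding transcript has 10 exons and 1583 bases, of which 1257 are coding, for 419 amino acids. Cpb1 (ENSMUSG00000011463.5) lies on the minus strand at chr3:20248264-20275733. Its transcript has 11 exons and 2718 bases, of which 1245 are coding, for 415 amino acids. The Cpb1 model of RefSeq ends 1215 bp before that of GENCODE, so the length of the Cpb1 transcript depends on the annotation. Coding lengths were not compared between the annotations. Each gene sits beside other M14 genes. Cpa5 lies 7473 bp and Cpa4 46800 bp from Cpa1 on the same strand, and Cpa3, the mast cell carboxypeptidase, lies 6083 bp from Cpb1. No annotated gene overlaps either of them.

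The promoters of both genes are shown because acinar enzyme genes are known targets of PTF1, a complex of Ptf1a and Rbpjl that binds an E-box and a nearby TGGGAA core. Each line gives the 250 bases before the start of the gene, 5′ to 3′ on the strand of the gene, from the RefSeq promoter table of build GRCm38.p6, in which both genes were found. Capitals mark matches to the E-box letters CANNTG and to TGGGAA, searched on both strands.
Cpa1, chr6:30638968-30639217, plus strand: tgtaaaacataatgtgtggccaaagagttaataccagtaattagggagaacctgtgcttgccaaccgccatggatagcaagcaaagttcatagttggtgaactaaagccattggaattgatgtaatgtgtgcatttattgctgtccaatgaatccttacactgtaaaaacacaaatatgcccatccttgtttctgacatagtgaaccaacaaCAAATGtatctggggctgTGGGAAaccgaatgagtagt
Cpb1, chr3:20275734-20275983, minus strand: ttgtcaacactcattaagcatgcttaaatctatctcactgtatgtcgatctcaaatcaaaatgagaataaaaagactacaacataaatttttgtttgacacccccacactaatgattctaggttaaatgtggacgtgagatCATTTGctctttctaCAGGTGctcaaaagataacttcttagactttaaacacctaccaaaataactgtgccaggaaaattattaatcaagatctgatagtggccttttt
The Cpa1 promoter held the E-box CAAATG at bases 38 to 33 before the start and TGGGAA at bases 20 to 15. The Cpb1 promoter held the E-boxes CATTTG at bases 109 to 104 and CAGGTG at bases 94 to 89, and no TGGGAA. Neither window held the letters TATAAA on either strand. Among 32851 promoters of the same length, 66.2% held CANNTG, 21.6% held TGGGAA, 14.8% held both and 12.4% held TATAAA. These matches are letters in a window, and binding was not measured here.

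Gene counts per library ranged from 11718559 to 19024351. Levels are given in CPM, the usual unit of counts relative to library size, after scaling with TMM factors, which set most genes level between libraries. The targeted gene did not separate the groups: Insr stood at 29.8 ± 9.88 CPM (SD, n = 3) in WT, 38.5 ± 8.92 (SD, n = 3) in Het and 31.5 ± 5.95 (SD, n = 4) in KO, and KO differed from WT by 0.09 (SE 0.26) on the log2 scale (edgeR, adjusted p = 0.864). A count per gene holds no record of single exons, and other cell types of each piece keep Insr, so this check does not decide whether the alleles were cut. WT-2404 stood apart from the other 9 libraries: 30 digestive enzyme genes took 15.7% of its gene counts, against 58.3% to 77.3% in the others, and its TMM scaling factor was 3.53, against 0.596 to 1.56. The record of WT-2404 also words its RNA extraction differently from the other 9 records, and whether it was handled differently was not tested. The main results against WT are given with and without this library.

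Cpa1 and Cpb1 were among the most counted genes of every library. Counts of Cpa1 were 168649, 516085 and 930631 in WT-2404, WT-1860 and WT-2067. They were 614276, 913709 and 1005183 in Het-2066, Het-1770 and Het-2042, and 952300, 710956, 534992 and 1017180 in KO-2079, KO-2070, KO-2124 and KO-2126. Among all genes ordered by counts, which grow with transcript length, Cpa1 took places 3 to 7.

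In the same order of libraries, Cpb1 had 135146, 379342 and 945794 counts in WT. It had 747207, 846139 and 809305 in Het, and 817403, 568814, 563444 and 851394 in KO. Cpb1 took places 4 to 10 among all genes. These raw counts also depend on the depth of each library. By raw counts WT-2404 was the lowest library for both genes and WT-1860 came next for both. The third WT mouse, WT-2067, had more Cpb1 counts than any other mouse.

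On the CPM scale Cpa1 stood at 2817, 28211 and 56997 CPM in WT, at 53865, 85129 and 61678 in Het, and at 58858, 93621, 24652 and 102728 in KO, in the order above. The means were 29341 ± 27108 (SD, n = 3) in WT, 66891 ± 16271 (SD, n = 3) in Het and 69965 ± 35635 (SD, n = 4) in KO. The highest library, KO-2126, had 36.5 times the level of WT-2404 on this scale, and 6.16 times its share of gene counts. The TMM factor was 0.596 in KO-2126 and 3.53 in WT-2404. The groups overlapped: WT-2067 lay above Het-2066, and KO-2124 lay below WT-1860.

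Cpb1 followed the same pattern, at 2257, 20736 and 57925 CPM in WT, 65522, 78833 and 49659 in Het, and 50521, 74903, 25963 and 85985 in KO. Its means were 26973 ± 28353 (SD, n = 3) in WT, 64671 ± 14606 (SD, n = 3) in Het and 59343 ± 26733 (SD, n = 4) in KO. The highest library was again KO-2126, with 38.1 times the level of WT-2404 on this scale. As a share of gene counts, Cpb1 took 5.13% in KO-2126 and 0.798% in WT-2404. Between the 3 group means, Cpa1 was ordered WT, Het, KO and Cpb1 was ordered WT, KO, Het, and the ranges of neighbouring groups overlapped in each order. Without WT-2404 the mean of the remaining 2 WT libraries was 42604 CPM for Cpa1 and 39331 CPM for Cpb1, still below the Het and KO means of each gene.

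**Figure D1:**
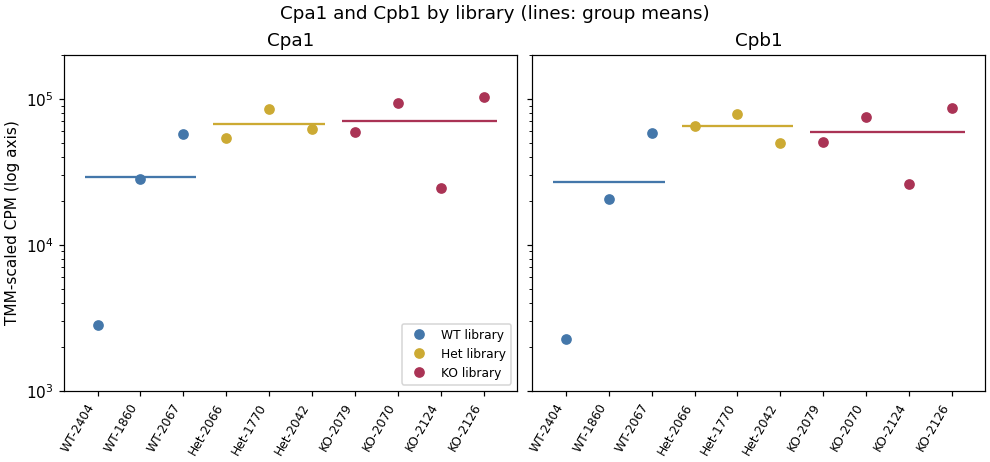
Level of Cpa1 (left) and Cpb1 (right) in each of the 10 libraries, in TMM-scaled CPM on a log axis. Points are libraries coloured by group and lines are group means. WT-2404 lies far below every other library for both genes, and KO-2124 lies with WT-1860 rather than with the other KO libraries.

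The first question was whether the level of either gene differed between mice with both Insr alleles floxed and WT mice. Between KO and WT mice the log2 fold change was 1.25 (SE 0.93, 95% interval -0.76 to 3.26) for Cpa1 and 1.14 (SE 0.93, 95% interval -0.87 to 3.15) for Cpb1. Neither passed the threshold of 0.05 in edgeR's quasi-likelihood test over the 13688 genes tested (adjusted p = 0.419 and 0.465). Nor did any other gene: 0% of the genes tested passed in this comparison, while 3221 had an unadjusted p under 0.05 in edgeR, 9.6% of all tested being higher in KO and 13.9% lower, and neither carboxypeptidase was among these. DESeq2 called 1009 genes in the same comparison, 294 of them higher in KO, but neither Cpa1 (log2 fold change 1.23, adjusted p = 0.216) nor Cpb1 (1.12, adjusted p = 0.274). Of the 2 carboxypeptidases, 0 had KO and WT ranges that did not overlap, where 6.74% of all tested genes lay wholly higher in KO and 9.17% wholly lower.

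Leaving out WT-2404 or WT-2067 moved these values by more than 1.5 times. Without WT-2404 the log2 difference of KO from WT was 0.69 (SE 0.59) for Cpa1 and 0.57 (SE 0.58) for Cpb1 in edgeR (adjusted p = 0.697 and 0.751). Without WT-2067, the WT library with the largest share of enzyme counts, it was 2.18 (SE 1.03) for Cpa1 and 2.38 (SE 0.99) for Cpb1 (edgeR, adjusted p = 0.160 and 0.120). Without WT-1860 the values were 1.22 and 0.98. Both genes stayed on the KO side of 0 with any single WT or KO library left out, and the p-values measure the spread between these mice only.

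With 1 floxed allele the values were close in size. In Het against WT the log2 fold change was 1.19 (SE 0.97, 95% interval -0.92 to 3.29) for Cpa1 and 1.26 (SE 0.98, 95% interval -0.86 to 3.38) for Cpb1 (edgeR, adjusted p = 0.486 and 0.462). No gene passed in edgeR (0% of those tested), with 2714 at an unadjusted p under 0.05, 8.26% of all tested being higher in Het and 11.6% lower, neither carboxypeptidase among them. DESeq2 called 326 genes, 137 of them higher in Het, and neither carboxypeptidase (adjusted p = 0.305 for Cpa1 and 0.282 for Cpb1). Neither gene had ranges apart, against 11.3% of all tested genes wholly higher in Het and 13.5% wholly lower. Without WT-2404 the log2 fold changes were 0.66 (SE 0.61) and 0.72 (SE 0.61), and without WT-2067 they were 2.11 (SE 1.05) and 2.50 (SE 1.02). The KO and Het comparisons share the same 3 WT libraries, so their likeness is not independent.

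KO against Het asks whether the other allele adds to the first, with an error taken from the fit of all 10 libraries. The log2 fold change was 0.06 (SE 0.90, 95% interval -1.88 to 2.01) for Cpa1 and -0.12 (SE 0.90, 95% interval -2.07 to 1.82) for Cpb1 (edgeR, adjusted p = 1.0 for both). Fitted on the KO and Het libraries alone, the values were 0.07 (SE 0.48) and -0.12 (SE 0.44), with the same adjusted p in edgeR. No gene passed in edgeR (0%), and DESeq2 called 0. An unadjusted p under 0.05 was met by 103 genes in edgeR, 0.402% of those tested being higher in KO and 0.351% lower, and neither carboxypeptidase was among them. The ranges of both genes overlapped, where 1.3% of all tested genes lay wholly higher in KO and 1.16% wholly lower.

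The values depended on the scaling. With library size alone the log2 difference of KO from WT was 0.57 for Cpa1 and 0.56 for Cpb1, and the median over every tested gene was -1.17. In Het against WT it was 0.54 and 0.69, where the median was -1.36. Relative to that median both genes remained higher, and with TMM the medians of all genes were 0.03 and 0.00. In exact two-sided permutation tests over mice on log2 CPM, Cpa1 gave p = 0.171 in KO against WT, 0.2 in Het against WT and 0.943 in KO against Het, and Cpb1 gave 0.143, 0.2 and 0.714. The smallest p these designs allow is 0.0286 for 3 against 4 mice and 0.1 for 3 against 3.

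A share of counts needs no scaling between libraries. Cpa1 and Cpb1 together took 1.79%, 7.64% and 10.1% of gene counts in WT, 9.92%, 10.4% and 9.54% in Het, and 9.73%, 10.6%, 6.88% and 11.3% in KO. The 95% Wilson intervals were at most 0.0348 percentage points wide, and cover counting error only. Means were 6.51% ± 4.26 (SD, n = 3) in WT, 9.97% ± 0.454 (SD, n = 3) in Het and 9.63% ± 1.93 (SD, n = 4) in KO. The KO mean was 3.12 percentage points above WT (exact permutation p = 0.286) and the Het mean 3.46 above WT (exact permutation p = 0.3). Without WT-2404 these differences were 0.758 and 1.10 points. In a bulk sample, fewer acinar cells and less carboxypeptidase RNA per acinar cell cannot be told apart.

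Set against the other digestive enzymes, the carboxypeptidases varied less. Their share of the counts of 30 digestive enzyme genes was 11.4%, 13.1% and 14.1% in WT, 13.9%, 13.7% and 13.3% in Het, and 13.7%, 13.8%, 11.05% and 14.6% in KO. Amy2a2, Amy2a3, Amy2a4 and Dnase1, which are among these genes, had 0 counts in every library. If reads of near-identical amylase genes were lost in counting, these shares are too high, which was not tested. The highest of these shares was 1.32 times the lowest, where the share of all gene counts spanned 6.28 times. The wide span of the latter came from WT-2404. Without that library the share of gene counts ran from 6.88% to 11.3% and the share of enzyme counts from 11.05% to 14.6%. KO-2124 and WT-2404 were the lowest libraries on this measure, and the groups overlapped. Means were 12.9% ± 1.37 (SD, n = 3) in WT, 13.7% ± 0.309 (SD, n = 3) in Het and 13.3% ± 1.54 (SD, n = 4) in KO, with exact permutation p-values of 0.657 for KO against WT, 0.5 for Het against WT and 0.914 for KO against Het. The difference of KO from WT was 0.390 points with all libraries and -0.344 without WT-2404. In Het against WT it was 0.770 points with all libraries and 0.036 without WT-2404.

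**Figure D2:**
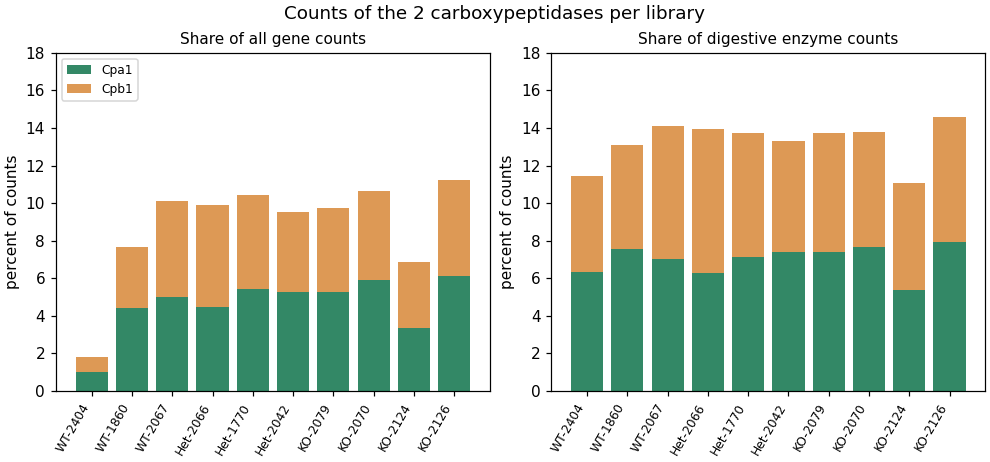
Counts of Cpa1 and Cpb1, stacked, as a percentage of all gene counts (left) and of the counts of 30 digestive enzyme genes (right), with 1 bar per library. The share of all counts spans 1.79% to 11.3%, or 6.88% to 11.3% without WT-2404. The share of enzyme counts stays between 11.05% and 14.6%.

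The balance between the 2 genes also differed between mice. The ratio of Cpa1 to Cpb1 counts was 1.25, 1.36 and 0.984 in WT, 0.822, 1.08 and 1.24 in Het, and 1.17, 1.25, 0.95 and 1.19 in KO. Cpa1 had more counts in 7 of 10 libraries, and Cpb1 had more in WT-2067, Het-2066 and KO-2124, which is 1 mouse of each group. The 95% counting interval of a ratio was at most 0.0179 wide, so the spread from 0.822 to 1.36 was larger than counting error. No difference between groups was detected: the mean ratios were 1.20 ± 0.193 (SD, n = 3) in WT, 1.05 ± 0.212 (SD, n = 3) in Het and 1.14 ± 0.132 (SD, n = 4) in KO. On the log2 scale, exact permutation p-values were 0.657 for KO against WT, 0.5 for Het against WT and 0.486 for KO against Het. In all, 15 exact permutation tests were run on these measures, and adjusted over the 15 their p-values ran from 0.75 to 0.943.

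**Figure D3:**
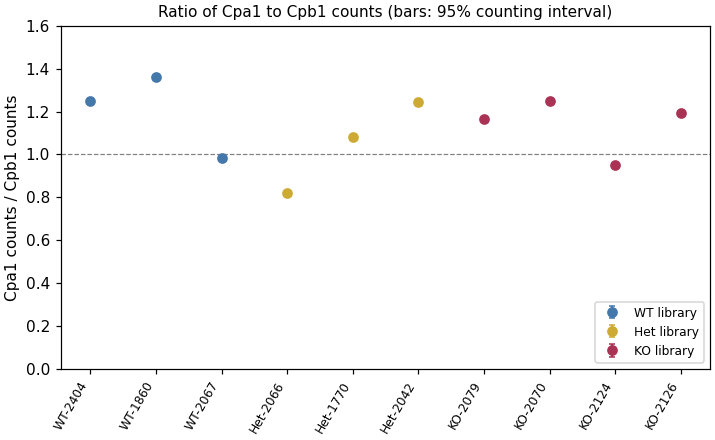
Ratio of Cpa1 to Cpb1 counts in each library, coloured by group. The 95% counting intervals are smaller than the points, and each group has libraries on both sides of the dashed line at 1.

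Which gene is the more abundant depends on the length used. Per kilobase of transcript, Cpa1 averaged 35916 ± 20053 CPM per kilobase (SD, n = 10) and Cpb1 18849 ± 10075 (SD, n = 10), and Cpa1 was higher in 10 of 10 libraries, by 1.41 to 2.34 times. Per kilobase of coding sequence the averages were 45231 ± 25254 for Cpa1 and 41149 ± 21995 for Cpb1 (SD, n = 10), and the ratio ran from 0.814 to 1.35, above 1 in 7 of 10 libraries. The 2 lengths differ most for Cpb1, whose GENCODE transcript has a long stretch outside the coding part. Among the digestive enzyme genes with a GENCODE length, Cpa1 was number 7 and Cpb1 number 15 by level per transcript length. By level per coding length they were numbers 8 and 10. Amy2a2, Amy2a3, Amy2a4 and Dnase1 tied for last, with 0 counts. No GENCODE length was found for Amy2b, which passed the filter on low counts, so it was not ranked. If reads of near-identical amylase genes were lost in counting, these places may be too high, which was not tested.

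The rest of the M14 family did not move as a block. Of 14 other M14 genes listed, 14 were in the table and 10 passed the filter on low counts. In KO against WT, 5 had higher and 5 lower fold changes, with a median of 0.05 on the log2 scale beside 0.03 over every tested gene, and 0 passed the adjusted threshold in edgeR. At an unadjusted p under 0.05, 1 was higher (Cpm) and 4 were lower (Cpz, Cpxm1, Cpxm2 and Aebp1). Between Het and WT mice the median was -0.07, and 2 were higher at that p (Cpe and Cpm) and the same 4 lower, and in KO against Het there were 0 in either direction. Without WT-2404, Cpm was higher in both comparisons at that p and Cpxm1 was lower in both, with Aebp1 also lower in KO and Cpz also lower in Het. Cpxm2 and Cpe then missed it in both, and the medians were 0.03 and -0.08. Of all 13768 genes tested without WT-2404, 1297 met that p in KO and 1083 in Het (edgeR). Without WT-2067, Cpm, Cpz, Cpxm1 and Aebp1, 4 of the 10, passed the adjusted threshold in edgeR both in KO (adjusted p from 0.023 to 0.026) and in Het (0.034 to 0.045). Of all 14172 genes tested without WT-2067, 1933 passed in KO and 1158 in Het. With so few members, these counts are read only as a description beside the numbers over all genes given here and above.

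Cpm, a membrane-bound enzyme that removes basic residues outside the cell, stood at 3.97 ± 1.02 CPM (SD, n = 3) in WT, 8.91 ± 3.35 (SD, n = 3) in Het and 9.41 ± 3.24 (SD, n = 4) in KO. Its log2 fold change was 1.24 (SE 0.32) in KO against WT and 1.17 (SE 0.34) in Het against WT in edgeR (adjusted p = 0.116 and 0.183). DESeq2 gave adjusted p = 0.017 and 0.055. No WT library reached the lowest Het or KO library. Without WT-2404 the values were 1.12 and 1.06, and with library size alone they were 0.07 and -0.13, against all-gene medians of -1.17 and -1.36.

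Cpxm1, Cpxm2 and Aebp1 belong to a branch of the family that lacks catalytic residues, and Cpz is a secreted enzyme of the extracellular matrix. Cpxm1 stood at 86.4, 28.9 and 19.3 CPM in WT, 5.96, 10.6 and 15.1 in Het, and 10.9, 5.0, 11.7 and 3.84 in KO, so every WT library lay above every other. Its log2 fold change was -2.49 (SE 0.55) in KO against WT and -2.08 (SE 0.60) in Het against WT (edgeR, adjusted p = 0.116 and 0.183), and -1.57 and -1.16 without WT-2404. Aebp1 gave -1.08 (SE 0.31) and -1.05 (SE 0.33) with the same adjusted p-values in edgeR, and -0.54 and -0.50 without WT-2404. Cpz gave -2.16 (SE 0.57) and -2.39 (SE 0.65) from few counts, with a lowest library of 2, and -1.22 and -1.44 without WT-2404. Cpxm2 gave -0.96 (SE 0.44) and -1.33 (SE 0.49), and -0.73 and -1.09 without WT-2404. DESeq2 called Cpxm1, Aebp1 and Cpz in KO against WT (adjusted p = 0.002, 0.026 and 0.017), and Cpxm1 and Cpz in Het against WT (adjusted p = 0.028 and 0.034).

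Cpe, which trims prohormones in endocrine cells, gave log2 fold changes of 0.88 (SE 0.45) and 1.08 (SE 0.48), and Cpd, which works in the trans-Golgi network, gave -0.31 (SE 0.17) and -0.13 (SE 0.18). Cpn1, the catalytic subunit of plasma carboxypeptidase N, gave 0.81 (SE 0.47) and 0.90 (SE 0.50). Without WT-2404 the values were 0.46 and 0.68 for Cpe, -0.24 and -0.04 for Cpd, and 0.41 and 0.53 for Cpn1. Relative to 0, library size alone turned Cpe in KO against WT (-0.03) and Cpn1 in both (-0.13 and -0.03). Cpa3, the mast cell enzyme beside Cpb1, lay between 0.13 and 1.92 CPM in all libraries. Cpa4, Cpa6 and Cpb2 had 8, 3 and 14 counts over the 10 libraries together, and Cpa5, the closest neighbour of Cpa1, had 0. In a single library 0 counts allow up to 3 counts, or 0.158 to 0.256 CPM before TMM scaling.

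**Figure D4:**
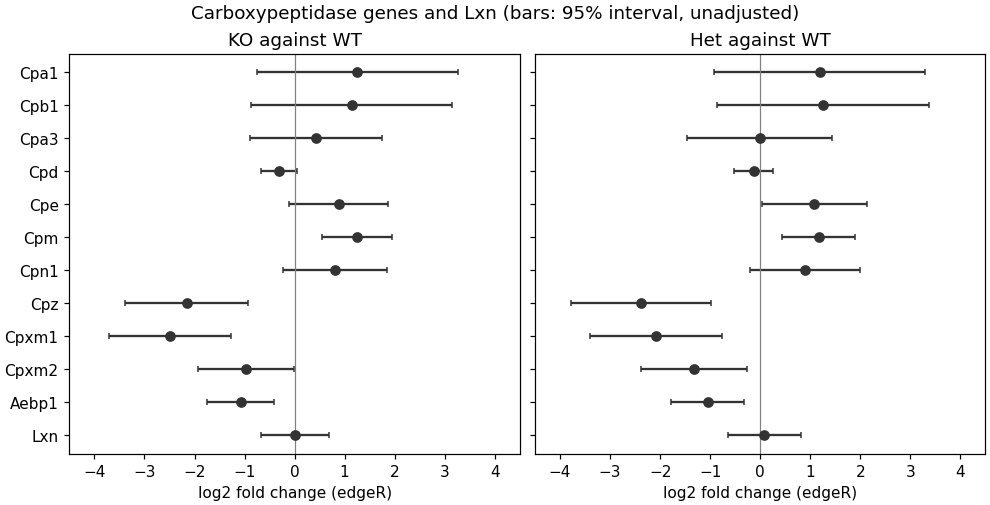
Log2 fold change of Cpa1, Cpb1, the other M14 genes named in the text that were tested, and the inhibitor Lxn in KO against WT (left) and Het against WT (right), from edgeR. Points are estimates and bars are 95% intervals that are not adjusted for the number of genes. The intervals of Cpa1 and Cpb1 cross 0 in both panels, and those of Cpz, Cpxm1, Cpxm2 and Aebp1 lie below it.

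Latexin (Lxn) is the cellular inhibitor of A-type carboxypeptidases. It stood at 12.1 ± 4.64 CPM (SD, n = 3) in WT, 12.8 ± 3.58 (SD, n = 3) in Het and 12.3 ± 3.84 (SD, n = 4) in KO, with log2 fold changes of 0.01 (SE 0.31) and 0.08 (SE 0.33) against WT. Without WT-2404 both turned direction, to -0.22 and -0.12. Its relative Rarres1 had 75 counts in all and did not pass the filter in the fit of all libraries.

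Trypsin activates both procarboxypeptidases, so trypsinogen genes and their regulators were listed with them. Of 9 genes, 8 were tested, and all 8 had higher fold changes in KO than in WT and in Het than in WT, with median log2 fold changes of 0.97 and 1.13. Without WT-2404 the medians were 0.51 and 0.61, again with 8 of 8 higher. None passed the adjusted threshold in edgeR with all libraries. Without WT-2067, 3 passed in KO (Prss3, Try10 and Spink1) and 2 in Het (Prss3 and Try10). Over all 14172 genes then tested, 1933 passed in KO and 1158 in Het. Spink1, a trypsin inhibitor that acinar cells secrete with their enzymes, stood at 610.1 ± 406 CPM (SD, n = 3) in WT, 1446 ± 120 (SD, n = 3) in Het and 1467 ± 289 (SD, n = 4) in KO. Its WT range lay wholly below the other groups, and KO differed from WT by 1.27 on the log2 scale (SE 0.49, adjusted p = 0.157 in edgeR and 0.041 in DESeq2), or by 0.82 (SE 0.32) without WT-2404. Tmprss15, the enteropeptidase that starts trypsin activation in the gut, had 1 count in 10 libraries.

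The ratio of Cpa1 plus Cpb1 counts to those of Prss2, a major trypsinogen, was 1.09, 2.05 and 2.19 in WT, 2.28, 2.35 and 2.30 in Het, and 2.47, 2.58, 2.08 and 2.67 in KO. WT-2404 was the lowest, and the other 9 libraries lay within 2.05 and 2.67. To Ctrb1, a chymotrypsinogen, the ratio was 0.349, 0.744 and 0.845 in WT, 1.45, 0.854 and 0.804 in Het, and 0.857, 1.04, 0.986 and 1.04 in KO. Here WT-2404 was again lowest and Het-2066 highest. In WT-2404, the carboxypeptidases were low beside these 2 proteases. Beside Rnase1, the pancreatic ribonuclease, they were not: that ratio was 5.93 in WT-2404, within a range of 4.43 to 6.17 over the 10 libraries.

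The other acinar lists had fold changes on the same side as the carboxypeptidases. In KO against WT the median log2 fold change was 1.16 for 7 chymotrypsins and elastases, 1.25 for 9 tested lipases, amylases and nucleases, 0.98 for 7 zymogen granule genes and 0.63 for 7 acinar transcription factors, all members higher. In Het against WT the medians were 1.26, 1.24, 0.98 and 0.55, again with all members higher. Without WT-2404 the KO medians were 0.60, 0.69, 0.43 and 0.33, and the Het medians 0.72, 0.71, 0.50 and 0.31. In Het, 6 of 7 chymotrypsins and elastases and 6 of 7 transcription factors were then higher. With library size alone the KO median of the transcription factors was -0.36, beside -1.17 over every tested gene. Reads of near-identical trypsinogen and amylase genes may be split or lost in counting, so single genes of those families are uncertain.

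Most fibroblast and duct markers and all immune markers lay on the opposite side. The summed level of 6 fibroblast markers was 1204 to 4292 CPM in WT, 477 to 938 in Het and 422 to 1078 in KO, and their median log2 difference of KO from WT was -1.91. That of 6 duct markers was 701 to 1137 CPM in WT, 322 to 563 in Het and 330 to 558 in KO, with a median of -1.58. That of 7 immune markers was 289 to 1026 CPM in WT, 153 to 226 in Het and 88.9 to 324 in KO, with a median of -1.43. WT-2404, the library lowest in Cpa1 and Cpb1, was the highest in all 3 sums. Without it the 3 medians were -1.22, -1.24 and -0.88. In Het against WT they were -1.68, -1.20 and -1.57, and -1.03, -0.88 and -0.90 without it. Lower in KO than in WT were 5 of 6 fibroblast, 5 of 6 duct and 7 of 7 immune markers. Lower in Het than in WT were 6, 5 and 7. Without WT-2404 the numbers were 5, 6 and 7 in both comparisons. Of these 19 genes, only the B cell marker Ms4a1 was at 0 in any library.

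Summed levels of 7 mast cell markers were 14.1 to 14.5 CPM in WT, 11.1 to 13.6 in Het and 12.6 to 21.9 in KO. The mast cell protease genes Mcpt4 and Cma1 and the IgE receptor genes Ms4a2 and Fcer1a were at 0 in at least 1 library, as was Hdc. For 6 islet markers the sums were 436 to 5286 CPM in WT, 4589 to 9217 in Het and 3347 to 7896 in KO, and for 3 adipocyte markers 31.5 to 39.3, 49.3 to 62.0 and 35.4 to 79.9. Islet markers lay on the same side as the carboxypeptidases, with a median log2 difference from WT of 0.82 in KO (5 of 6 higher) and 1.17 in Het (6 of 6 higher), or 0.31 and 0.69 without WT-2404. So did adipocyte markers, with 0.63 and 1.20 (3 of 3 higher in both), or 0.75 and 1.04 without it. The 3 mast cell markers tested gave -0.54 and -1.26, or 0.14 and -0.75 without it. With library size alone the islet medians were -0.0004 in KO and 0.32 in Het, and the adipocyte medians -0.51 and 0.13. The medians over every tested gene were then -1.17 and -1.36. The part of these other cell types in the levels of Cpa1 and Cpb1 was not tested.

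Finally, each gene was compared with all 13687 other tested genes by the SD over the 10 libraries of the log2 ratio of their counts, where 0 would mean a fixed ratio. This is a description, since all genes share the same libraries and depth. Rnase1 followed Cpa1 most closely with an SD of 0.11, and remained the closest without WT-2404 at 0.09. Next came Sycn (0.19), a protein of the granule membrane, 2210010C04Rik (0.20), a trypsinogen gene, Klb (0.21), the co-receptor for FGF21, and Egf (0.22). Without WT-2404 Sycn was number 12 and 2210010C04Rik number 15. Cpb1 was number 6 at 0.23. The median over all genes was 1.57, and Insr stood at 1.34.

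Cpb1 was followed most closely by Serpini2 (0.18), a serpin of the pancreas, and Amy2b (0.19) and Cpa1 (0.23) came next. Without WT-2404 Serpini2 was number 10 and Amy2b number 19. 2210010C04Rik (0.23) was number 5 with all libraries, where the median over all genes was 1.62. Among the 30 genes closest to Cpa1 were 11 of the 25 other digestive enzyme genes, and among the 30 closest to Cpb1 there were 9. Without WT-2404 the SD of the ratio between Cpa1 and Cpb1 was again 0.23, but 30 other genes then lay closer to Cpa1 than Cpb1 did.

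**Figure D5:**
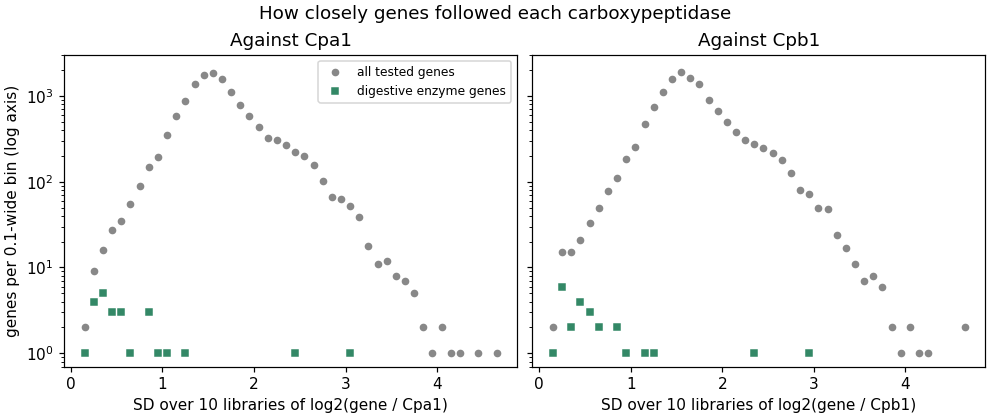
Number of genes (log axis) by the SD over 10 libraries of the log2 ratio of their counts to Cpa1 (left) and to Cpb1 (right), in bins of 0.1. Circles are all tested genes and squares are digestive enzyme genes, most of which lie at the left, below the medians of 1.57 and 1.62.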

How the data were processed

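The authors deposited raw read counts per gene symbol, 1 column per mouse, as whole numbers whose totals differ between libraries. Per the submitters' processing notes, DRAGEN, STAR and Cufflinks and build mm10 were used; their roles, the counting tool, its use of strand and the annotation are not given in the sources used here. Per the labels' protocols, frozen tissue was pulverised, RNA was taken with column kits and a stranded mRNA kit was used for the libraries. A further part of the genotype, shared by all groups, and the results of 1 listed gene are not reported here. The 2 entries naming no gene (no feature, 2.59% to 8.71% of all counts, and ambiguous, 0.101% to 0.584%) were left out, and 0 columns belonged to no sample.

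Of 24421 genes, 6269 had no count and 13688 passed filterByExpr (minimum count 10). All 10 libraries were fitted with edgeR 4.0.16 (limma 3.58.1, R 4.3.3), with TMM scaling, robust glmQLFit and glmQLFTest, two-sided, and Benjamini-Hochberg adjustment over all tested genes at 0.05. Fold changes compare fitted group means, and SE is the log2 fold change over the root of F. CPM divide counts by library size times the TMM factor, and log2 CPM add a prior count of 2. Alternatives were DESeq2 1.42.0, library size alone, scaling without the enzyme genes, no filter, only the groups compared, other denominators, and leaving out each library. Exact permutation tests enumerated every split of the mice in Python 3.11.15 (numpy 2.4.6, pandas 2.3.3). Wilson intervals and the adjustment of the permutation p-values used scipy 1.17.1, and figures used matplotlib 3.10.9. The fit was tested on data simulated with the same dispersion for every gene and no library of outlying composition. Its behaviour with a library like WT-2404 was therefore not tested. Lengths and coordinates came from GENCODE M21. The text names both carboxypeptidases, Insr, genes of the lists and the 5 genes closest to each member by the SD of log2 ratios (0.5 added to counts). Members and lists were chosen with earlier results of these data known. Each library is labelled as a separate mouse, and no batch or date is given.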

Additional observations from a re-analysis of the deposited data

How the results depend on the processing

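Counts of genes past the threshold depended on the method. In KO against WT edgeR called 0 genes, library size alone 2835 (all lower in KO) and DESeq2 1009, and leaving out 1 library gave 0 to 1933, the highest without WT-2067. In Het against WT the counts were 0, 3125 with library size alone and 326 with DESeq2, and 0 to 1158 with 1 library left out, again highest without WT-2067. In KO against Het every alternative gave 0. The cause was not tested.

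Both carboxypeptidases stayed short of the threshold in every alternative run. With 1 library left out, the log2 fold change in KO against WT ran from 0.69 to 2.18 for Cpa1 and from 0.57 to 2.38 for Cpb1, and in Het against WT from 0.66 to 2.11 and from 0.72 to 2.50. Small differences turned direction with 1 library left out: in KO against Het, Cpa1 from -0.18 to 0.32, Cpb1 from -0.36 to 0.10, their share of gene counts from -0.883 to 0.575 points, their share of enzyme counts from -0.808 to 0.364 points and their log2 ratio from -0.031 to 0.27. In KO against WT the share of enzyme counts ran from -0.344 to 1.13 points and the log2 ratio from -0.20 to 0.033. Of the comparisons of a value with its alternative, 156 kept direction and side of the threshold, 12 turned direction and 6 were counts that moved by over 1.5 times.

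No paired analysis was possible because the mouse numbers in the labels are not shared between groups. Depth does not limit these 2 genes, with at least 168649 counts of Cpa1 and 135146 of Cpb1 in each library. The groups held 3 or 4 mice each, with WT-2404 and WT-2067 at opposite ends of the WT group. How far the number of mice or the composition of the libraries limited the comparisons was not tested. In the KO group, the only one with 4 libraries, 27 measures were examined for a library far from the others, and 0 passed Dixon's limit, where chance gives about 1.35. Groups of 3, WT among them, were not examined.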

Other observations

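Ctrc encodes chymotrypsin C, a chymotrypsin-like enzyme known to act on procarboxypeptidases and trypsinogens during activation. It was the digestive enzyme gene named here whose level followed the carboxypeptidases least. It stood at 1.47, 117 and 212 CPM in WT-2404, WT-1860 and WT-2067, at 9009, 252 and 166 in Het-2066, Het-1770 and Het-2042, and at 134, 11503, 4701 and 184 in KO-2079, KO-2070, KO-2124 and KO-2126. Het-2066, KO-2070 and KO-2124 were thus far above the other 7 libraries. The SD of its log2 ratio to Cpa1 was 3.09, where Rnase1 had 0.11. The Ctrc and Cela2a models of GENCODE share their 3′ end on chromosome 4 of GRCm38, so counts of the pair may be split or lost, and this was not tested. Ctrc was singled out after its values were seen.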
